A study of Mus musculus with 3 samples.

Results

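The comparison described here set the submandibular gland of irradiated mice that received saline against the gland of mice that were not irradiated, over all genes and with all nuclei of a gland pooled. Single-nucleus RNA sequencing was done on wild-type (WT) mice, with 1 library per group. The 2 libraries used were those labelled as no treatment and as irradiation plus saline, of 3 in the series. The remaining library, from irradiated mice given pilocarpine, appears here only as a side value. Titles put the irradiated glands at 90 days after irradiation, whereas the extraction protocol puts them at 93 days. Radiation dose, sex, age, number of mice and hour of collection are not given in the labels. The non-irradiated label names no saline, so irradiation and saline cannot be told apart in this contrast. Frozen glands were broken up mechanically, and the nuclei were stained with the DNA dye DAPI, sorted by flow cytometry and captured in droplets with a kit that reads the 3' end of transcripts.

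All barcodes with at least 500 detected genes and at most 5% of their unique molecular identifiers (UMIs, 1 per captured transcript) in mitochondrial genes were kept. This gave 10635 nuclei with 25566617 UMIs in the non-irradiated library and 8622 nuclei with 29177212 UMIs in the irradiated + saline library, which together are 19257 of the 27633 nuclei kept over the series. The median nucleus held 1536 UMIs in the non-irradiated and 2113 UMIs in the irradiated + saline library. The kept barcodes of the 2 libraries shared 26 sequences. UMIs were summed over all kept nuclei and expressed as counts per 1000000 UMIs of the library (CPM). With 1 library per group there was no test, and a difference between groups cannot be told apart from a difference between 2 glands or 2 libraries. The 95% intervals given below cover counting error only.

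The submandibular gland makes saliva in acini, clusters of secretory cells that release fluid and protein when muscarinic receptors on them are stimulated. In mice the saliva passes through granular convoluted tubules, duct cells that store growth factors and kallikrein proteases in secretory granules, and through striated ducts that reclaim salt. Ionizing radiation breaks DNA, which activates the transcription factor p53, and loss of saliva is a known late effect of radiation on salivary glands. Type I interferons are signals best known from virus infection, and their target genes can also be switched on by DNA in the cytosol. The molecular clock is a feedback loop in which Arntl (BMAL1) with Clock or Npas2 activates Per and Cry genes, whose proteins then repress it.

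The labelled tissue was checked against marker genes. Acinar markers summed to 52418 CPM in the non-irradiated and 49734 CPM in the irradiated + saline library, and the acinar secretory mucin-like gene Mucl2 alone stood at 41139 and 40108 CPM. Markers of granular or striated ducts summed to 3192 and 6689 CPM, markers of macrophages to 147 and 227 CPM, and markers of intercalated or proacinar cells to 290 and 45.4 CPM. The gene Smgc alone made up 278 and 33.9 CPM of this last sum. Of the 4 intercalated or proacinar markers measured, 2 were higher and 2 lower. Fibroblast markers (210 and 238 CPM) and endothelial markers (171 and 179 CPM) lay closer together. In a pooled value, more nuclei of a type and more RNA per nucleus cannot be told apart. Nuclei were therefore also clustered and grouped into classes, and each gene was recomputed at a fixed mix, that is with every class given the same weight in both libraries. Acinar-like nuclei made up 67.5% (95% interval 66.6 to 68.3) of the non-irradiated and 42.4% (41.4 to 43.5) of the irradiated + saline nuclei, and granular or striated duct-like nuclei 6.13% and 19.02%. The duct-like difference of 12.89 points was 5.399 points at a finer clustering (resolution 2). There cluster 13 (51 and 545 nuclei) and cluster 11 (348 and 427 nuclei) took no name. Slit2, Adcy2 and Clip4, leading genes of the duct-like cluster at resolution 1, were also leading genes of cluster 13. At resolution 1, clusters 0 and 3 held 47.9% and 38.2% of the acinar-like nuclei of the non-irradiated library. Clusters 1 and 2 held 54.4% and 30.7% of those of the irradiated + saline library. Mucl2 was also found in classes not known to make it: in the non-irradiated gland it stood at 36129 CPM in macrophage-like nuclei and 39815 CPM in endothelial-like ones, beside 48227 CPM in acinar-like ones. After irradiation + saline the same classes held 32252, 42109 and 57369 CPM.

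More genes were past 2-fold upward than downward in the irradiated + saline gland. Of 15725 genes with at least 50 UMIs over both libraries, 351 (2.23%) were at least 2-fold higher and 45 (0.286%) at least 2-fold lower, measured as the ratio of CPM + 1. The median log2 ratio of all these genes was 0.06, 58.1% were higher and 88.4% lay within 1.5-fold. Past 4-fold there were 20 genes upward and 10 downward, and past 8-fold 2 and 3. At a fixed mix of classes 192 genes (1.22%) were past 2-fold upward and 33 (0.21%) downward. Of the 351 higher genes 177 (50.4%) were also past 2-fold at the fixed mix and 350 kept their sign, and of the 45 lower genes 31 (68.9%) and all 45 did. The count of higher genes was 817 when each nucleus had equal weight and 64 with a pseudocount of 10 CPM. Within acinar-like nuclei 192 of 12093 genes (1.59%) were past 2-fold upward and 96 (0.794%) downward, and within duct-like nuclei 150 of 8410 (1.78%) and 156 (1.85%), so the excess of higher genes was not found in duct-like nuclei.

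**Figure D1:**
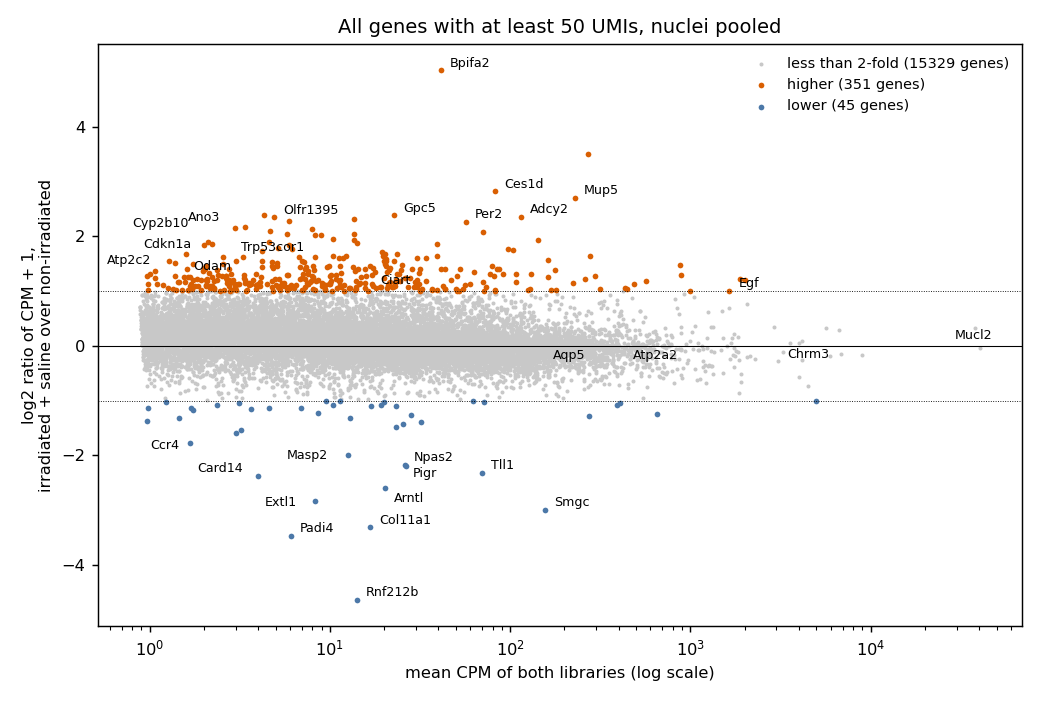
Each point is 1 of 15725 genes, with its mean CPM over both libraries on a log axis against the log2 ratio of CPM + 1, irradiated + saline over non-irradiated. The 351 genes above the upper dotted line and the 45 below the lower one are past 2-fold, and Bpifa2 and Rnf212b are the outermost named genes.

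Among the 12 genes that stood farthest above the non-irradiated level, ranked by whichever bound of the ratio's interval lies closer to 1, 3 encode secreted proteins. Bpifa2 encodes a salivary protein of the bactericidal/permeability-increasing family that is made in quantity by the young mouse gland. It had 39 UMIs in 16 nuclei, or 1.53 CPM (1.08 to 2.09), without irradiation. After irradiation + saline it had 2371 UMIs in 404 nuclei, or 81.3 CPM (78.02 to 84.6), which is 53.3 times higher (38.9 to 75.1). The irradiated + pilocarpine library held 38.5 CPM. Within acinar-like nuclei Bpifa2 stood at 2.24 and 117 CPM. Mup5, a major urinary protein and so a lipocalin that carries small volatile ligands, stood at 60.1 and 397 CPM, 6.60 times higher (6.26 to 6.97), with 68.1 and 626 CPM in acinar-like nuclei. Major urinary protein genes resemble each other and may share reads, and Mup4, another member of the family, was 6.05 times higher (4.37 to 8.57). Odam, which encodes an enamel-associated secreted protein, had 6 and 86 UMIs, and 75.6% of the latter lay in 10 nuclei, so its value rests on few nuclei.

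Other genes of the upper 12 encode enzymes and signalling proteins. Ces1d, a carboxylesterase that hydrolyses lipid esters, stood at 19.8 and 146 CPM, 7.36 times higher (6.71 to 8.08), although members of its gene family resemble each other. It was higher in both main classes, at 5.87 and 115 CPM in acinar-like and 91.4 and 284 CPM in duct-like nuclei. Cyp2b10, a cytochrome P450 of drug metabolism, had 8 UMIs against 114. Adcy2, an adenylyl cyclase that makes cyclic AMP, stood at 36.6 and 192 CPM, 5.25 times higher (4.89 to 5.63), and in duct-like nuclei at 266 and 738 CPM. Gpc5, a heparan sulfate proteoglycan of the cell surface, stood at 6.65 and 38.9 CPM, and in acinar-like nuclei at 8.19 and 63.8 CPM. Atp2c2, a calcium and manganese pump of the secretory pathway, had 4 and 70 UMIs. The olfactory receptor gene Olfr1395 stood at 0.939 and 8.84 CPM, and its neighbours on chromosome 11, Olfr56 and Olfr1396, were 5.80 and 3.51 times higher. Olfr56 and Olfr1396 overlap in position and receptor genes resemble each other, so reads may be split among them.

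The last members of the upper 12 are Cdkn1a and Trp53cor1, which are linked to p53, and Ano3, a member of the p53 list described below. Cdkn1a encodes p21, the inhibitor of cyclin-dependent kinases through which p53 halts the cell cycle. It had 10 UMIs in 10 nuclei against 118 UMIs in 108 nuclei, or 0.391 and 4.04 CPM, 10.3 times higher (5.43 to 22.1), and the irradiated + pilocarpine library stood at 3.78 CPM. Trp53cor1 (lincRNA-p21), a long non-coding RNA transcribed next to Cdkn1a from the other strand, had 29 against 237 UMIs and was 7.16 times higher (4.86 to 10.9). On build GRCm38 the genes lie at chr17:29090976-29100727 (plus strand) and chr17:29057430-29079179 (minus strand), 11797 bases apart. Ano3, a scramblase-like protein of the anoctamin family, had 12 against 160 UMIs, and 62 of the latter but 0 of the former lay in duct-like nuclei.

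Among the 12 genes that stood farthest below, Rnf212b and Padi4 were nearly undetected after irradiation + saline. Rnf212b, a relative of the meiotic recombination factor Rnf212, had 717 UMIs in 626 nuclei against 5 UMIs in 5 nuclei, which is 28.0 and 0.171 CPM and 164 times lower (69.8 to 506). Its UMIs in the non-irradiated library were spread over the classes: acinar-like nuclei stood at 29.0 CPM, duct-like at 25.8 CPM, ionocyte-like at 34.1 CPM and endothelial-like at 30.4 CPM. In the irradiated + saline library no class held more than 1 UMI of it among the 7 classes compared. The gene spans chr14:54814141-54854108 on the plus strand and overlaps Homez on the other strand, which stood at 4.22 and 3.87 CPM. Padi4, a peptidylarginine deiminase that citrullinates histones, had 305 against 5 UMIs, 69.6 times lower (29.5 to 216). Endothelial-like nuclei held 30 of these UMIs in the non-irradiated library and 0 in the irradiated + saline library. The irradiated + pilocarpine library held 0.120 CPM of each gene, so both irradiated libraries were near 0.

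The next genes of the lower 12 are known from undifferentiated or proacinar salivary cells and from matrix. Smgc, the submandibular gland protein C of neonatal proacinar cells and of intercalated duct cells, stood at 278 and 33.9 CPM, 8.19 times lower (7.66 to 8.76). It overlaps the mucin gene Muc19 on the same strand (chr15:91838265-91861438 and chr15:91838326-91934555), and Muc19 had 128 against 29 UMIs, so reads of the 2 genes may be mixed. Col11a1, a fibrillar collagen chain, stood at 31.3 and 2.26 CPM, 13.9 times lower (10.8 to 18.1). Tll1, a protease that trims procollagens, stood at 117 and 22.7 CPM, 5.14 times lower (4.73 to 5.60), whereas in endothelial-like nuclei it stood at 283 and 260 CPM. Of the UMIs of Smgc, Col11a1 and Tll1, 80.9%, 88.4% and 83.4% in the non-irradiated and 88.2%, 83.3% and 74.8% in the irradiated + saline library lay in nuclei of clusters that were given no name. These genes are therefore described without a cell class. At the finer clustering (resolution 2) 1 cluster, also without a name, was led by Tll1, Smgc, Col11a1 and Muc19. It held 167 nuclei of the non-irradiated and 10 of the irradiated + saline library. The UMIs left after irradiation + saline lay in few nuclei, with 85.3% of Smgc, 80.3% of Col11a1 and 69.8% of Tll1 in 10 nuclei each, against 24.0%, 35.2% and 34.5% in the non-irradiated library.

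Several of the lower 12 were low in acinar-like nuclei and elsewhere alike. Pigr encodes the receptor that carries immunoglobulin A across the epithelium into saliva and stood at 43.4 and 8.88 CPM, 4.89 times lower (4.27 to 5.62). In acinar-like nuclei Pigr was 49.5 and 14.0 CPM, and in duct-like nuclei 22.6 and 2.25 CPM. Extl1, a glycosyltransferase of heparan sulfate synthesis, stood at 15.3 and 1.30 CPM, 11.8 times lower (8.43 to 16.9). Card14, a scaffold of NF-kappa-B signalling, stood at 7.39 and 0.617 CPM, and Masp2, a protease of the lectin complement pathway, at 20.8 and 4.46 CPM. Each overlaps a gene on the other strand that differed less: Sgsh, beside Card14, stood at 5.05 and 3.94 CPM, and Tardbp, beside Masp2, at 203 and 199 CPM. Ccr4, a chemokine receptor best known from T cells, had 80 against 6 UMIs, and 52.5% of the 80 lay in acinar-like nuclei. The other two of the lower 12 were the clock genes Arntl and Npas2.

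**Figure D2:**
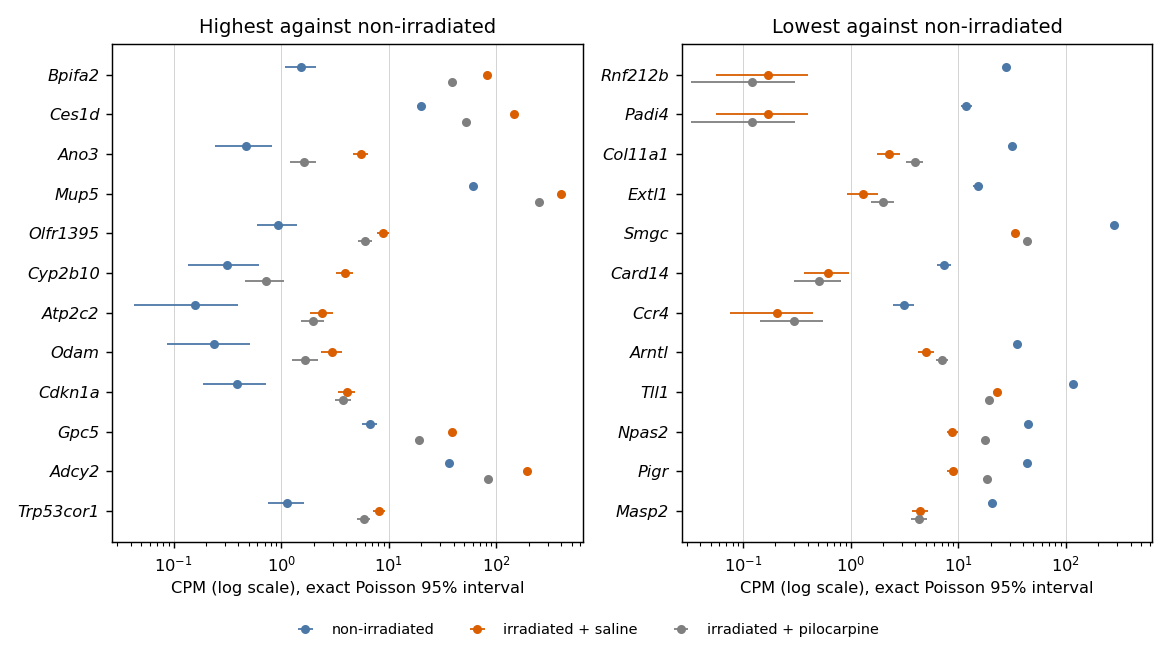
CPM on a log axis with exact Poisson 95% intervals for the 12 genes farthest above (left) and the 12 farthest below (right) in the irradiated + saline library (orange) against the non-irradiated library (blue), with the irradiated + pilocarpine library (grey) beside them. Rnf212b and Padi4 are at 0.171 CPM in the irradiated + saline library, and in every gene shown the blue and orange intervals do not overlap.

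The clock genes stood at opposite levels in the 2 libraries. Arntl (chr7:113207465-113314126) stood at 35.5 CPM in the non-irradiated and 5.04 CPM in the irradiated + saline library, 7.04 times lower (5.91 to 8.44). Npas2 (chr1:39193731-39363236), its alternative partner, stood at 44.3 and 8.84 CPM, 5.01 times lower (4.37 to 5.75). Per2 (chr1:91415982-91459324), a repressor of the loop, stood at 18.9 and 94.7 CPM, 5.01 times higher (4.55 to 5.53), and Ciart, a further repressor, at 8.96 and 25.7 CPM, 2.87 times higher (2.47 to 3.34). Of the 20 clock genes measured, 15 were higher, 2 were past 2-fold upward and 2 past 2-fold downward. For comparison, 1.82% and 0.242% of the 19421 genes with at least 10 UMIs, the minimum used for members of lists, were past 2-fold upward and downward. Of the same 19421 genes 60.0% were higher. Per1, Per3 and Cry1 were 1.75, 1.78 and 1.75 times higher, Clock stood at 116 and 105 CPM, and Nfil3, a repressor of the same output genes that Dbp activates, was 1.84 times lower (1.65 to 2.05). The irradiated + pilocarpine library lay near the irradiated + saline library for Per2 (74.5 CPM), Ciart (25.3 CPM) and Arntl (7.10 CPM), and held 17.9 CPM of Npas2. The hour at which each gland was taken is not given, and clock transcripts cycle through the day, so collection hour and treatment cannot be told apart for these genes.

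The clock pattern was seen in several classes, with myoepithelial-like nuclei apart for Npas2. Arntl in acinar-like nuclei stood at 30.6 and 0.978 CPM, 31.3 times lower (17.3 to 63.2), in fibroblast-like nuclei at 39.4 and 2.52 CPM, and in macrophage-like nuclei at 79.2 and 24.7 CPM. Npas2 in acinar-like nuclei stood at 32.3 and 1.60 CPM, but in myoepithelial-like nuclei (contractile cells that squeeze the acini) at 132 and 128 CPM, a ratio of 0.966 (0.729 to 1.28). Whether the ratio differs between these classes was not tested, since each group is 1 library. Per2 was higher in all 7 classes compared, from 2.62 times in myoepithelial-like nuclei to 6.81 times in acinar-like nuclei. Ciart in duct-like nuclei, with 5 and 19 UMIs, stood at 5.38 and 6.11 CPM.

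**Figure D3:**
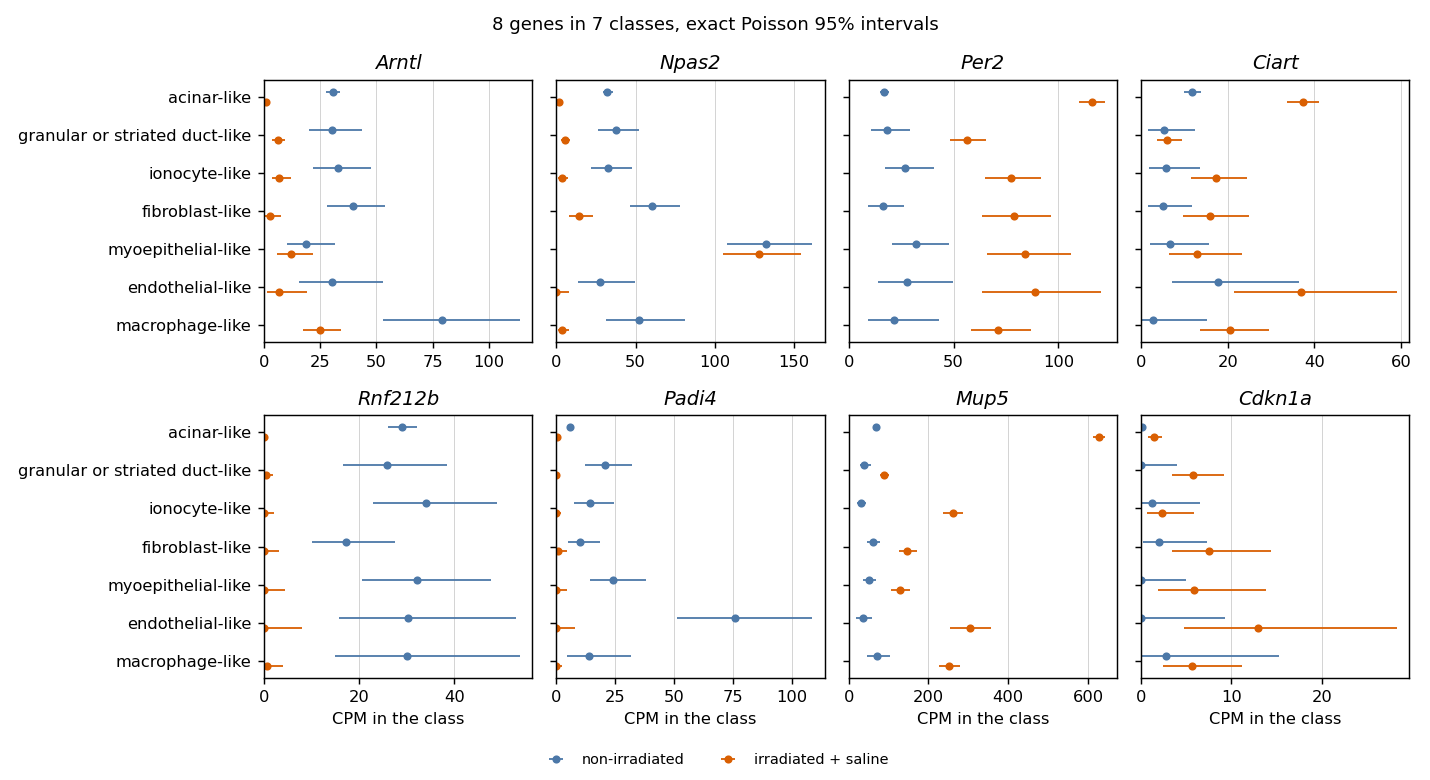
CPM within 7 classes of nuclei, with exact Poisson 95% intervals, for 4 clock genes (upper plots) and 4 further named genes (lower plots) in the non-irradiated (blue) and irradiated + saline (orange) libraries. Arntl and Per2 lie apart in opposite directions in acinar-like nuclei, Npas2 is at 132 and 128 CPM in myoepithelial-like nuclei, and Rnf212b is at or near 0 in every class after irradiation + saline.

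Type I interferon response genes were higher as a group. Of 34 members measured, 32 were higher and 18 past 2-fold upward, none past 2-fold downward, and the median log2 ratio was 1.06, against 0.07 over all genes with the same minimum of UMIs. At the fixed mix the median was 0.92. Ifit3, a cytoplasmic antiviral protein with tetratricopeptide repeats, had 19 and 127 UMIs and was 5.86 times higher (3.60 to 10.0). Ifit1, its relative that binds foreign RNA caps, had 82 and 326 UMIs and was 3.48 times higher (2.73 to 4.49). Oasl2 stood at 16.4 and 62.0 CPM, Oas2, which makes oligoadenylates that activate RNase L, at 4.54 and 16.3 CPM, and Ifi44 at 5.51 and 22.8 CPM. Usp18, which removes the ubiquitin-like ISG15 and dampens receptor signalling, stood at 16.4 and 51.6 CPM, and Irf7, a transcription factor of the pathway, at 3.52 and 11.3 CPM. Rsad2 (viperin) and Cmpk2 were the 2 members that were not higher, at 16.2 and 12.8 CPM and at 5.08 and 4.70 CPM. Members of the Ifit and Oas families resemble each other and may share reads.

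The interferon genes were higher in all 7 classes, with medians from 0.42 in endothelial-like to 1.18 in ionocyte-like nuclei. In duct-like nuclei 25 of 26 members measured were higher, 15 past 2-fold, where 4.56% of all genes were past 2-fold upward. In ionocyte-like nuclei, cells with many proton pumps and chloride channels, all 29 were higher and 16 past 2-fold (all genes 5.89%), and in fibroblast-like nuclei 31 of 32 were higher and 13 past 2-fold (all genes 5.86%). In acinar-like nuclei 23 of 29 were higher and 6 past 2-fold (all genes 1.54%). Of all genes with at least 10 UMIs in a class, 46.3% were higher in acinar-like and 45.3% in duct-like nuclei. The same share was 50.9% in ionocyte-like and 49.5% in fibroblast-like nuclei. Within fibroblast-like nuclei Oas2 stood at 21.2 and 99.1 CPM, whereas Ifi44 in endothelial-like nuclei stood at 93.6 and 93.1 CPM. Macrophage markers were also higher in the pooled gland, with 9 of 9 upward and 5 past 2-fold at a median of 1.05, and 0.23 at the fixed mix, and their part in the pooled interferon values was not tested.

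Promoters of the interferon genes are shown because the letters bear on which of these genes carry the site that interferon-activated factors bind. The core of the interferon-stimulated response element, GAAA followed by any 2 bases and GAAA again, was searched on both strands of the 250 bases before the gene start, in RefSeq sequence of build GRCm38.p6. It was found in 12 of 25 interferon genes with a promoter there (48%) and in 936 of 27025 genes (3.46%). The capitals mark the core as read 5′ to 3′ on the gene's strand, where TTTC, any 2 bases and TTTC is the core on the opposite strand. Ifit1 (chr19:34640639-34640888, plus strand) and Ifit3 (chr19:34583279-34583528, plus strand) each hold 2, and Trim30d (chr7:104507850-104508099, minus strand), an interferon-induced TRIM protein that was 3.46 times higher (2.85 to 4.24), holds 1.
Ifit1: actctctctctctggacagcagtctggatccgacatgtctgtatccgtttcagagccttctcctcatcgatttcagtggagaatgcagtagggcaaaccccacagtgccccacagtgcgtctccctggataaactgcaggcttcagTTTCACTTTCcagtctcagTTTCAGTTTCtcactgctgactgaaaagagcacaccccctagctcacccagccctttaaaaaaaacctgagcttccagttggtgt
Ifit3: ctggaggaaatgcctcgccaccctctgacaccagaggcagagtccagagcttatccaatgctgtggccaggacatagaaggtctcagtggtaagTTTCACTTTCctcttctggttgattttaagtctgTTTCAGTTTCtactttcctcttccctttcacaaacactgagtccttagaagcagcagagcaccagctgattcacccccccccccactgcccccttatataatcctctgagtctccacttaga
Trim30d: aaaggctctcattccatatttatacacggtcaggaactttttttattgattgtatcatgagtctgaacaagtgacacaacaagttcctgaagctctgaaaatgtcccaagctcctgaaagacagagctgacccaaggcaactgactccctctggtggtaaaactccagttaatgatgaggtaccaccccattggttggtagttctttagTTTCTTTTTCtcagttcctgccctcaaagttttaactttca
The 12 genes with the core had a median log2 ratio of 1.06, with 11 higher and 7 past 2-fold, and the 13 without it a median of 0.91, with 12 higher and 6 past 2-fold. Rsad2, at 16.2 and 12.8 CPM, is among the 12 with the core. A match describes these letters only and not a site that was bound.

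Among the clock genes the E-box CACGTG, the motif bound by Arntl with its partners, was found in 5 of 17 promoters of the same length (29.4%), against 1854 of 27025 genes (6.86%). The same motif was found in 6 of 25 promoters of the p53 and DNA damage list (24%). The promoter of Ciart (chr3:95882229-95882478, minus strand) is shown because it holds 3, whose first bases lie 116, 58 and 44 bases before the start, in capitals.
Ciart: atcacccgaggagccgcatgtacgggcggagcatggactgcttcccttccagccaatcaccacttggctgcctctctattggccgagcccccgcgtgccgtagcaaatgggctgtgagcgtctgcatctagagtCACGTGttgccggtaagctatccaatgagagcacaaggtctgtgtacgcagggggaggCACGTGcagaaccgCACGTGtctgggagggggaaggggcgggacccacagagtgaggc
Per1 and Cry1, at 1.75 times higher each, also hold an E-box in this window. The D-box TTATGTAA, bound by Dbp and Nfil3, was found in 2 of 17 clock promoters (11.8%) and in 264 of all (0.977%).

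Targets of p53 and DNA damage genes were higher as a group, and acinar-like nuclei had the highest median of the classes. Of 32 members measured, 29 were higher and 8 past 2-fold upward, with a median of 0.70 (0.63 at the fixed mix). Beside Cdkn1a and Ano3, these include Gdf15, a secreted stress cytokine, with 17 and 99 UMIs, 5.10 times higher (3.03 to 9.11). Eda2r, an ectodysplasin receptor of the TNF receptor family, stood at 11.3 and 31.9 CPM, and in acinar-like nuclei at 9.97 and 42.0 CPM. Pvt1, a long non-coding RNA, stood at 23.5 and 63.4 CPM, and Zmat3, an RNA-binding protein, at 17.1 and 37.3 CPM. Phlda3, which blocks membrane binding of the kinase Akt, was 3.76 times higher on 27 and 116 UMIs. Mdm2, the ubiquitin ligase that degrades p53 and is also its target, stood at 82.7 and 95.1 CPM, 1.15 times higher, and Ddb2, a sensor of damaged DNA, at 78.3 and 66.6 CPM. The list median was 0.77 in acinar-like nuclei, with 26 of 31 higher and 11 past 2-fold. It was 0.32 in duct-like nuclei, with 15 of 25 higher and 5 past 2-fold. Of all genes with at least 10 UMIs in these classes, 46.3% and 45.3% were higher, and 1.54% and 4.56% were past 2-fold upward. In the other 5 classes the list median ranged from 0.27 to 0.55.

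Products of granular tubules were the list with the highest median. All 17 members measured were higher, 15 past 2-fold, with a median of 1.32, and 1.00 at the fixed mix. Egf, the epidermal growth factor that this duct secretes into saliva, stood at 1092 CPM in the non-irradiated and 2195 CPM in the irradiated + saline library, 2.01 times higher (1.98 to 2.04), and at 662 CPM in the irradiated + pilocarpine library. The kallikrein proteases Klk1b24 and Klk1b21 were 4.78 (3.93 to 5.85) and 3.88 times higher (3.66 to 4.10), and Klk1 stood at 587 and 1060 CPM, 1.80 times higher. The Klk1b genes are near-identical neighbours on chromosome 7 and may share reads, so they are not independent members.

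The share of duct-like nuclei differed in the same direction as these products, by 12.89 points. At resolution 2, where clusters 11 and 13 took no name, it differed by 5.399 points. Within duct-like nuclei Egf stood at 4991 and 7342 CPM, 1.47 times higher (1.43 to 1.52), Klk1b21 at 331 and 776 CPM, and 16 of 16 members were higher with a median of 0.92, 5 of them past 2-fold. The products were also found at higher levels in classes not known to make them: Egf stood at 1300 and 3150 CPM in macrophage-like nuclei, and the list median was 1.40 there and 1.51 in endothelial-like nuclei. In acinar-like nuclei it was 0.28, with 12 of 16 higher and 0 past 2-fold. The ROR element TAGGTCA, searched as the motifs above, was found in 10 of 16 granular tubule promoters (62.5%), all of kallikrein genes with similar sequence, against 689 of 27025 genes (2.55%).

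Duct ion transport genes were higher in the pool, with a median near 0 within duct-like nuclei. Of 20 members 18 were higher and 2 past 2-fold, Slc5a5, the sodium/iodide symporter, at 1.80 and 6.61 CPM and Slc9a3, a sodium/proton exchanger, at 6.45 and 16.0 CPM. The median was 0.56 over the pool, 0.10 at the fixed mix and 0.02 within duct-like nuclei, where 10 of 17 were higher. Of all genes with at least 10 UMIs there, 45.3% were higher. Slc5a5 there stood at 7.53 and 25.4 CPM, whereas 86.7% and 82.6% of the Slc9a3 UMIs lay in unnamed nuclei. Scnn1b, a subunit of the epithelial sodium channel, stood at 83.4 and 147 CPM in the pool.

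**Figure D4:**
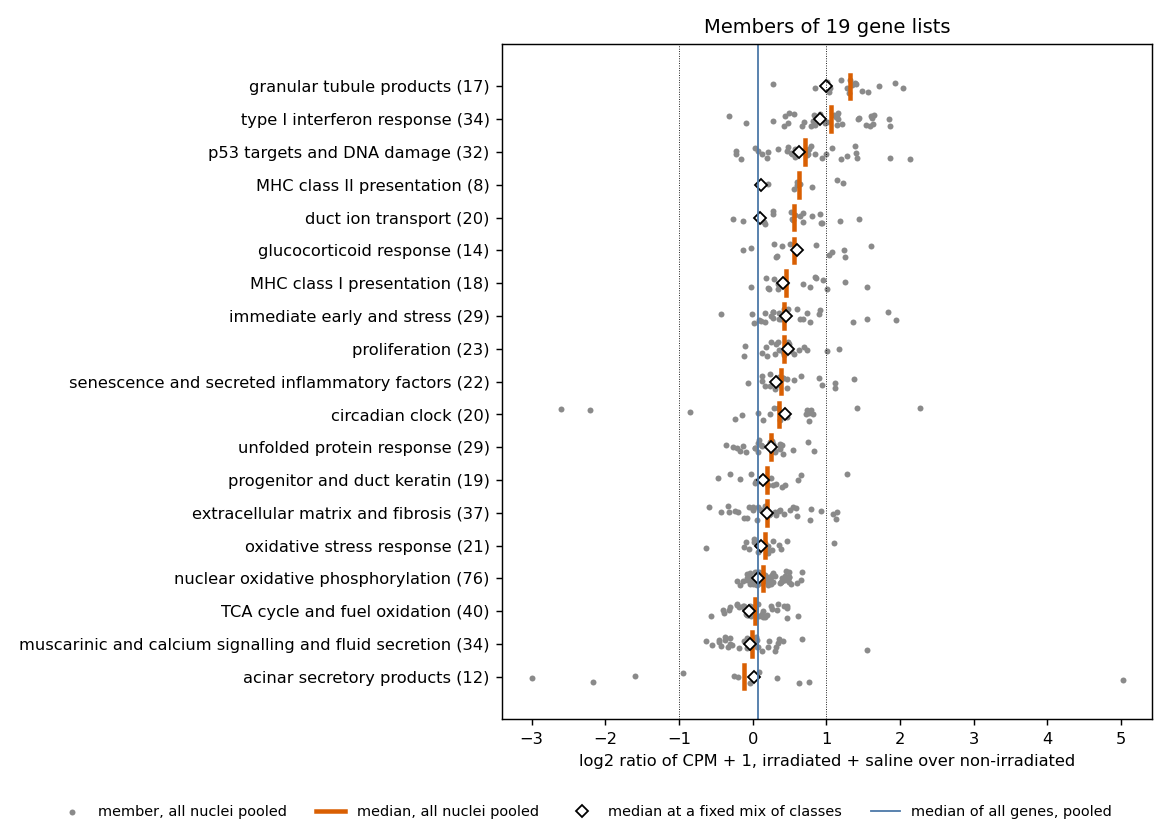
Log2 ratio of CPM + 1, irradiated + saline over non-irradiated, for each measured member (grey points) of 19 gene lists, with the number measured in parentheses, the list median over all nuclei (orange bar) and at a fixed mix of classes (diamond). Granular tubule products and interferon genes have the highest medians, 1.32 and 1.06, and the blue line marks the median of all genes, 0.07.

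Antigen presentation genes were higher in the pool, and for MHC class II the difference was small at the fixed mix. MHC class I genes, which show peptides from inside the cell, had 17 of 18 members higher, 3 past 2-fold and a median of 0.45, with 0.41 at the fixed mix. H2-Q7 and H2-Q6, non-classical members, stood at 9.74 and 30.4 CPM and at 8.41 and 21.4 CPM, although H2-Q genes resemble each other. Nlrc5, the transactivator of class I genes, stood at 20.6 and 42.4 CPM, and the classical H2-K1 at 156 and 199 CPM. MHC class II genes, expressed by macrophages and dendritic cells, had 8 of 8 members higher and 2 past 2-fold, Cd74 at 12.9 and 29.5 CPM and Ctss at 3.68 and 9.90 CPM. Their median was 0.62 over the pool and 0.11 at the fixed mix, and macrophage-like nuclei were 0.950% of the non-irradiated and 2.73% of the irradiated + saline nuclei.

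Glucocorticoid response genes and immediate early genes, both of which respond within hours to the state of the animal, were also higher. Of 14 glucocorticoid response genes 12 were higher and 5 past 2-fold, with a median of 0.56 and 0.60 at the fixed mix. Sgk1, a kinase that regulates sodium transport, was 3.18 times higher (14.6 and 46.2 CPM), and Fkbp5, a co-chaperone of the glucocorticoid receptor, 2.41 times higher (94.7 and 228 CPM). Zbtb16 stood at 47.0 and 100 CPM, Tsc22d3 at 94.2 and 135 CPM and Klf9 at 164 and 162 CPM. Fibroblast-like nuclei had the highest median of this list, 1.08, with 12 of 13 higher and 7 past 2-fold, and Fkbp5 there stood at 344 and 917 CPM. Of 29 immediate early and stress genes 27 were higher and 4 past 2-fold, with a median of 0.43. Jun, a subunit of the AP-1 factor, stood at 11.03 and 34.1 CPM, the phosphatases Dusp1 and Dusp4 at 7.31 and 20.4 CPM and at 2.03 and 9.87 CPM, and Ier3 at 3.72 and 17.2 CPM. Fos had 36 and 102 UMIs. Hour and handling at collection are not in the labels and cannot be told apart from treatment here.

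Genes of matrix, senescence and secreted inflammatory factors were higher in most members, with few past 2-fold. Over all genes with the same minimum of UMIs, 60.0% were higher. Of 37 extracellular matrix and fibrosis genes 28 were higher and 3 past 2-fold, with a median of 0.19. Among these, Timp3, an inhibitor of matrix proteases, stood at 37.0 and 82.4 CPM, and in fibroblast-like nuclei at 179 and 514 CPM. Ccn2, the connective tissue growth factor, stood at 1.84 and 5.28 CPM in the pool and at 24.1 and 78.3 CPM in myoepithelial-like nuclei. The fibrillar collagen Col3a1 stood at 37.5 and 29.4 CPM, and the proteoglycan Dcn at 57.5 and 84.2 CPM. In acinar-like nuclei 10 of 31 members of the matrix list were higher, with a median of −0.49. In fibroblast-like nuclei 23 of 34 were higher, with a median of 0.31. Of all genes with at least 10 UMIs in the class, 46.3% were higher in acinar-like and 49.5% in fibroblast-like nuclei. The median half-width of the members' counting intervals in the pool was 0.27 on the log2 scale. Of 22 senescence and secreted factor genes 21 were higher and 3 past 2-fold, with a median of 0.39. The same half-width was 0.64 for this list. Fibroblast-like nuclei had 12 of 14 higher, 5 past 2-fold, and a median of 0.82, where acinar-like nuclei had −0.07. Il33, an alarmin cytokine stored in the nucleus, stood at 122 and 341 CPM in fibroblast-like nuclei. Cxcl10, a chemokine for T cells that interferons induce, had 4 and 58 UMIs, and 81.0% of the 58 lay in 10 nuclei.

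Proliferation genes were higher in most members, and protein folding and oxidative stress genes had lower medians. Of 23 proliferation genes 21 were higher and 2 past 2-fold, with a median of 0.42. The median half-width of the members' counting intervals was larger, at 0.61 on the log2 scale. In acinar-like nuclei 10 of 19 members measured were higher, with a median of 0.07, and in macrophage-like nuclei 5 of 6 were higher. Of all genes with at least 10 UMIs in these classes, 46.3% and 50.5% were higher. Top2a, a topoisomerase of dividing cells, stood at 4.46 and 11.3 CPM, and Mki67 at 2.89 and 6.82 CPM. Of 29 unfolded protein response genes 23 were higher and none past 2-fold, with a median of 0.25, and Dnajb9 and Ddit3 were 1.85 and 1.72 times higher. Their median was 0.30 in acinar-like nuclei, with 28 of 29 higher, and −0.19 in fibroblast-like nuclei, with 5 of 28 higher. In fibroblast-like nuclei 49.5% of all genes with at least 10 UMIs were higher. The oxidative stress list had a median of 0.17 with 17 of 21 higher, where Gpx3 stood at 0.939 and 3.15 CPM and Gpx4 at 73.2 and 47.0 CPM. Progenitor and duct keratin genes had a median of 0.20, with 15 of 19 higher and only Ascl3, a transcription factor of ionocyte-like cells, past 2-fold (8.92 and 22.997 CPM).

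Lists of fluid secretion and energy genes had medians near that of all genes, whereas members of the acinar secretory products list differed in both directions. Genes of muscarinic and calcium signalling and fluid secretion had 17 of 34 members higher, 1 past 2-fold (Atp2c2) and a median of −0.01, and their median was below 0 in all 7 classes, from −0.23 to −0.06. In the pool Chrm3, the main muscarinic receptor of acini, stood at 3356 and 2763 CPM, 1.21 times lower (1.20 to 1.23), and the water channel Aqp5 at 171 and 138 CPM. Atp2a2, which pumps calcium into the endoplasmic reticulum, stood at 474 and 383 CPM there. Within acinar-like nuclei the lower level of Aqp5 was not found: 218 CPM without irradiation, 231 CPM after irradiation + saline. In the same class Chrm3 was slightly lower (3968 CPM, then 3793 CPM), as was Atp2a2 (525 CPM, then 468 CPM). Chrm3 in fibroblast-like nuclei stood at 1475 and 635 CPM. Mucl2 was also found in classes not known to make it, and whether acinar RNA entered these class values was not tested. The list of acinar secretory products was split, with 5 of 12 higher, Bpifa2 past 2-fold upward and Smgc, Muc19 and Pigr past 2-fold downward. Of the UMIs of Smgc 10.7% and 6.07%, and of those of Muc19 7.03% and 3.45%, lay in acinar-like nuclei. Pip, the prolactin-induced protein, stood at 1524 and 2600 CPM, Car6, the secreted carbonic anhydrase, at 4501 and 3767 CPM, and Oit1 at 715 and 370 CPM. Of 76 nuclear genes of oxidative phosphorylation 64 were higher, none past 2-fold, with a median of 0.14 (0.08 at the fixed mix). Of 40 genes of the tricarboxylic acid cycle and fuel oxidation 23 were higher, none past 2-fold, with a median of 0.03, and Ppara, a regulator of fatty acid oxidation, was 1.49 times lower.

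**Figure D5:**
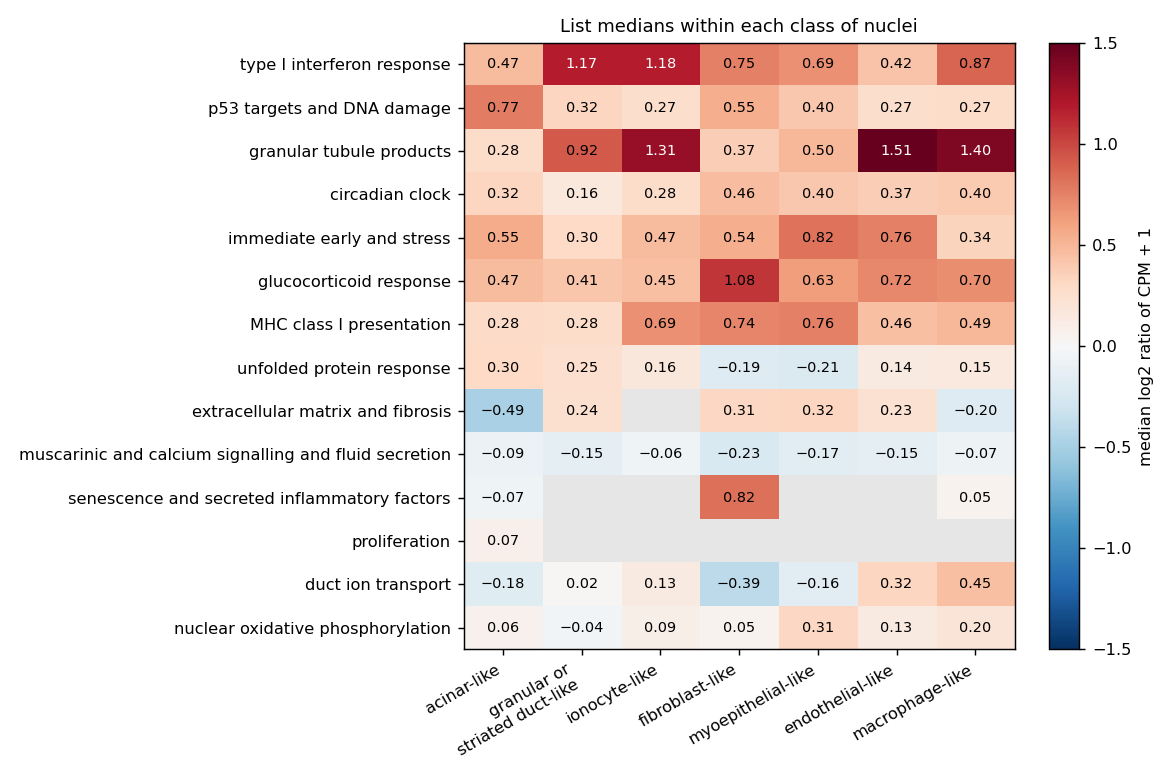
Median log2 ratio of CPM + 1 for 14 gene lists (lines) within 7 classes of nuclei (columns), as colours with the value printed; grey marks a list with fewer than 8 members measured in that class. Interferon genes are above 0 in every class, the p53 list is highest in acinar-like nuclei (0.77), and muscarinic and calcium signalling genes are below 0 in every class.

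Some abundant genes outside the lists were past 2-fold, here named after their values were seen. With a mean of at least 200 CPM over both libraries, 17 genes were past 2-fold upward and 5 downward. St3gal4, a sialyltransferase that caps glycans, stood at 6636 and 3291 CPM, 2.02 times lower (2.0005 to 2.03), and in acinar-like nuclei at 8645 and 5474 CPM. Rap1gap, which turns off the small GTPase Rap1, stood at 913 and 385 CPM, and Slc23a2, a vitamin C transporter, at 530 and 252 CPM. Slit2, an axon guidance ligand, stood at 1136 and 2630 CPM, and in duct-like nuclei at 7169 and 10261 CPM. Crisp3, a cysteine-rich secretory protein, stood at 514 and 1266 CPM. Gria3, a glutamate receptor subunit, stood at 135 and 421 CPM, and in acinar-like nuclei at 21.2 and 177 CPM. Gpr155 stood at 869 and 2243 CPM in acinar-like nuclei. The list of named genes left out predicted gene names, of which 2310057J18Rik had the largest bound, at 43.2 and 501 CPM, 11.6 times higher (10.9 to 12.3).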

How the data were processed

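Of the 3 single-nucleus RNA libraries of the series, 2 are compared. The deposited values are UMI counts per gene and nucleus barcode, made by the authors with Cell Ranger 7.0.1 on GRCm38, per the submitters' processing notes, and not normalized. Gene annotation and treatment of intron reads are not given in the sources used here. The gene minimum of 500 removed 1425 and 1536 barcodes, and the mitochondrial maximum of 5% was exceeded by 3 and 13 barcodes, in the non-irradiated and irradiated + saline libraries. No doublets were removed. Libraries held 26417958 and 29946943 UMIs before filtering, and mitochondrial genes took 0.0329% and 0.0410% of kept UMIs.

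UMIs were summed per library (Python 3.11.15). A gene was past 2-fold when the ratio of CPM + 1 reached 2 or its inverse, with at least 50 UMIs over both libraries. List members needed 10 UMIs. CPM have exact Poisson, ratios exact conditional binomial and shares exact Clopper-Pearson 95% intervals (scipy 1.17.1). Nuclei of all 3 libraries were clustered without integration on 3000 variable genes that excluded the list genes, with 30 components, 15 neighbours and Leiden resolution 1 (scanpy 1.11.5, leidenalg 0.10.2). A cluster took the name of a type when at least 3 of its markers stood at 0.65 or more of the highest cluster. These names are not the study's own and may differ from them. A fixed mix gives each class the same weight in both libraries. Named genes are the 12 most above and the 12 most below by the interval bound nearest to 1, leaving out mitochondrial, ribosomal, immunoglobulin, sex-linked and predicted genes, plus up to 4 members of each list past 2-fold, or 2 where none was, and Chrm3, Aqp5, Atp2a2, Cdkn1a, Egf and Mucl2. Further list members and classes were named for description. The members and lists were chosen with earlier results of these data known. On simulated counts of 15734 genes the 2-fold call recovered 50 of 50 genes raised 4-fold and 11 of 50 raised 2-fold, and called 0 of 15538 unchanged genes. The simulated counts held counting error only, with no difference between animals, libraries or class mixes. They therefore cannot show how often such differences lead to a call. Alternatives were other filters, TMM scaling, pseudocounts, equal weight per nucleus, removal of the deepest nuclei and of shared barcodes, and the fixed mix. Positions come from a GENCODE annotation of GRCm38 matched by gene ID. Results on 4 genes are not reported here.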

Additional observations from a re-analysis of the deposited data

How the results depend on the processing

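No paired analysis was possible because neither group was repeated. The numbers of genes past 2-fold upward (351) and downward (45) were 344 and 44 with a minimum of 200 genes, 295 and 40 with 1000 genes, and 293 and 54 with TMM scaling. The higher genes numbered 817 with equal weight per nucleus, 583 without the 5% of nuclei with most UMIs, 192 at a fixed mix and 64 with a pseudocount of 10 CPM, where lower genes numbered 18. A larger pseudocount shrinks ratios of weakly expressed genes by construction, and otherwise the cause was not tested.

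Equal weight per nucleus gave list medians of −0.27 for acinar products, 0.86 for duct ion transport, 1.06 for MHC class II, 0.10 for the unfolded protein response and 0.50 for extracellular matrix. Without the deepest 5% of nuclei they were −0.24 for acinar products, 0.83 for duct ion transport and 0.16 for the unfolded protein response. A pseudocount of 10 CPM gave 1.12 for granular tubule products, 0.30 for p53 targets, 0.52 for interferon genes, 0.29 for MHC class II and 0.13 for the unfolded protein response. At the fixed mix granular tubule products had 1.00, duct ion transport 0.10, MHC class II 0.11 and acinar products 0.0149, a reversal of sign. Acinar products had −0.00906 with no UMI minimum and −0.19 with 50 UMIs, and TMM moved muscarinic and calcium genes to −0.0727. The acinar-like share differed by −16.78 points with 1000 genes and −22.69 at resolution 2, the duct-like share by 10.64 and 5.399 points, the ionocyte-like share by 1.770 points at resolution 2 and the myoepithelial-like share by 0.2581 points with 1000 genes. Of the values of named genes under these alternatives, 548 stayed within their counting interval and 163 moved. A reversal was counted only for genes past 2-fold in the main comparison, and 0 were found. Smaller ratios that changed sign count among those that stayed or moved. The log2 ratio of Mucl2, for example, was −0.0366 in the main comparison and 0.0601 at the fixed mix. Depth limits weakly expressed genes: the gene counts needed 50 UMIs, and list members, pooled or within a class, only 10 UMIs.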

Other observations

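Some genes past 2-fold were neighbours on a chromosome. Of the 351 higher genes 113 lay within 100 kb of another higher gene, and of the 45 lower genes 4 lay within that distance of another lower gene, and the same share was not computed for all tested genes. On chromosome 1 a run of interferon-inducible Ifi genes (Ifi206, Ifi213, Ifi209, Ifi207 and Ifi204) was higher, with Ifi213 at 57 and 293 UMIs, and on chromosome 19 Ifit1, Ifit2, Ifit3 and Ifit3b were. The kallikreins of chromosome 7 and the olfactory receptors of chromosome 11 formed further runs, and these families can share reads. Chromosome 1 held 30 higher and 8 lower genes of 963 tested. Among the 351 higher genes 71 (20.2%) were on a described list, among the 45 lower genes 5 (11.1%), and among all tested genes 474 (3.01%). The lists were chosen with earlier results of these data known, so these shares are not independent of the calls and no conclusion is drawn from them.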
